A study of Mus musculus with 6 samples.

Results

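The 81 genes described here stood higher in the second sample of reporter-positive mouse embryonic stem (ES) cells than in its same-numbered reporter-negative sample, and by less, or not at all, in the first and the third pair. They were taken from 19938 measured genes that have a symbol of their own on the array, and make up 0.406% of them. A gene was included where the positive minus the negative value was at least 1.5 on the log2 scale in replicate pair 2 and below 0.5 in both pair 1 and pair 3. Genes whose symbol starts with Obox, Tcstv, Pramel, Usp17l or Tdpoz were left out. Genes of these clusters under other symbols stayed in, AF067061 and AF067063 of the Tcstv cluster among them. The 6 arrays came from ES cells that carried the fluorescent reporter 2C::tomato and were sorted by it, 3 arrays of positive and 3 of negative cells, numbered 1 to 3 in each group. All 6 samples are marked as wild type, were grown on gelatin, and belong to a line in which Kdm1a can be deleted with 4OHT. The protocol names vehicle and 4OHT together and does not say which of them these samples received. Strain and clone are not named, nor whether the 3 samples of each group were separate cultures.

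The 2C::tomato reporter is known as a fluorescent protein driven by the promoter of the endogenous retrovirus MERVL. MERVL is active in the mouse embryo at the two-cell stage, when the embryo first transcribes its own genome, and in a small and changing fraction of cultured ES cells. Copies of the MERVL long terminal repeat lie near many genes, and transcripts that start in them can run into a nearby gene, so genes with no known task in the early embryo can be part of the two-cell transcript set. The reporter itself was not measured by a named probeset here.

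The promoters of the 4 genes with the largest pair 2 difference, each with 1 start in the RefSeq promoter table, are shown because the genes differ in kind: a gene of the Tcstv cluster, a phosphatase gene with a CpG-rich start, a growth factor gene and a gene of the Bex family. Each is the 250 bases before the annotated start on the plus strand of GRCm38.p6, written 5′ to 3′, at chr13:120262845-120263094, chr10:11343195-11343444, chr2:126034408-126034657 and chr16:32179550-32179799 in that order. Capitals mark matches, on either strand, to 7 short motifs, none of which contains another: the TATA box TATAAA, the CCAAT box, the homeodomain core GGATTA, the nuclear receptor site AGGTCA, the E-box CACGTG, the GATA site AGATAA and the GC box GGGCGG.
AF067061: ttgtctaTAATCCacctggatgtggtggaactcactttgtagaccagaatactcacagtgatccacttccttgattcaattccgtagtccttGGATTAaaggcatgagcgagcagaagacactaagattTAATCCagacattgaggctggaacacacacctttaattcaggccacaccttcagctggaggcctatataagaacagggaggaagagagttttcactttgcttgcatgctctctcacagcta
Epm2a: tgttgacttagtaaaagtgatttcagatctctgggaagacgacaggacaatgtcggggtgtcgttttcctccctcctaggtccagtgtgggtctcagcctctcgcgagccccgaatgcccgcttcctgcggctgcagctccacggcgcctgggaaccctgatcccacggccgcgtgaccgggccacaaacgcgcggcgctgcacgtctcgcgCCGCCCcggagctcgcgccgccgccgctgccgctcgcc
Fgf7: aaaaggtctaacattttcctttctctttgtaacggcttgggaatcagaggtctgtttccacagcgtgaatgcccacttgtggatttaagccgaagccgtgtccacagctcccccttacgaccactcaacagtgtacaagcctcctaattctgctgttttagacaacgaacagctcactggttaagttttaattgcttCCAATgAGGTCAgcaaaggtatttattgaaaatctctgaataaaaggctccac
Bex6: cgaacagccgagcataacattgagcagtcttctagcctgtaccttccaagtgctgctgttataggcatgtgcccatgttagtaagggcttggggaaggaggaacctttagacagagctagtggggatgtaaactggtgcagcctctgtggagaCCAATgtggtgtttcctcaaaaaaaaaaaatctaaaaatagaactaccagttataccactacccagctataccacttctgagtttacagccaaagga

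The AF067061 stretch holds 3 matches to GGATTA, the core read by homeodomain proteins of the Obox and Otx kind, and 2 CpG. The Epm2a stretch holds 30 CpG and 1 match to GGGCGG, the Fgf7 stretch holds CCAAT and AGGTCA within a few bases of each other, and Bex6 holds CCAAT alone. A match is a description of the letters, and the start used in these cells was not measured.

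Values are log2 expression as the authors normalized them. Arrays correlated at r between 0.969 and 0.995 across genes, and their medians, taken over 35556 probesets, ran from 6.95 to 7.04. Kdm1a, the histone demethylase that the protocol names, stood at 10.98, 11.25 and 10.98 in negative and 10.91, 11.02 and 10.92 in positive arrays 1, 2 and 3. The ES cell marker Pou5f1 stood between 12.08 and 12.69 on the 6 arrays and Nanog between 12.54 and 12.98. Sox2, another such marker, stood at 12.25, 12.26 and 12.43 in negative and 12.25, 11.57 and 12.46 in positive arrays 1, 2 and 3, so positive array 2 was the lowest of the 6. Pair 2 stood apart from the other pairs. In it 184 genes (0.923%) were at least 1.5 higher in the positive than in the negative array. In pair 1 it was 26 (0.13%) and in pair 3 it was 7 (0.0351%). Between the groups, limma called 0 of 19938 genes (0%) at a Benjamini-Hochberg adjusted p under 0.05. At an unadjusted p under 0.05 it gave 878 genes, 388 higher and 490 lower in positive cells. That is fewer than this limit gives on average among 19938 genes with no difference between the groups. The 81 genes were chosen on this same contrast, so their differences are given as values with no test.

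The 81 genes had a median difference of 1.91 in pair 2, from the limit of 1.5 up to 4.58, which is a median of 3.77-fold. Their medians were 0.19 in pair 1 and 0.04 in pair 3, and over all genes the medians were -0.02, -0.05 and -0.01 in pairs 1, 2 and 3. In pair 2, 7 of the 81 differed by at least 3, 35 by at least 2 and the other 46 by less than 2. Below the limit of 0.5, 65 of the 81 were above 0 in pair 1 and 49 in pair 3, and 56 had a larger difference in pair 1 than in pair 3 (69.1%), against 46.1% of all genes. In the fit over all 6 arrays their median difference was 0.71, from 0.33 to 1.71, against -0.04 over all genes. It was 0.16 without positive array 2 and 0.11 without both arrays of replicate 2, where 64 and 17 of the 81 lay above and below 0 in the first case. All 3 positive arrays lay above all 3 negative arrays for 19 of the 81 (23.5%), against 4.08% of all genes. For several of the 19 the gap was narrow, such as positive array 3 at 4.18 and negative array 1 at 4.16 for Naalad2. The choice of the genes bears on each of these counts, so nothing is read from them against the shares of all genes. In sorted bulk samples, a difference in how many cells carry a transcript and in how much of it each cell carries cannot be told apart.

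**Figure D1:**
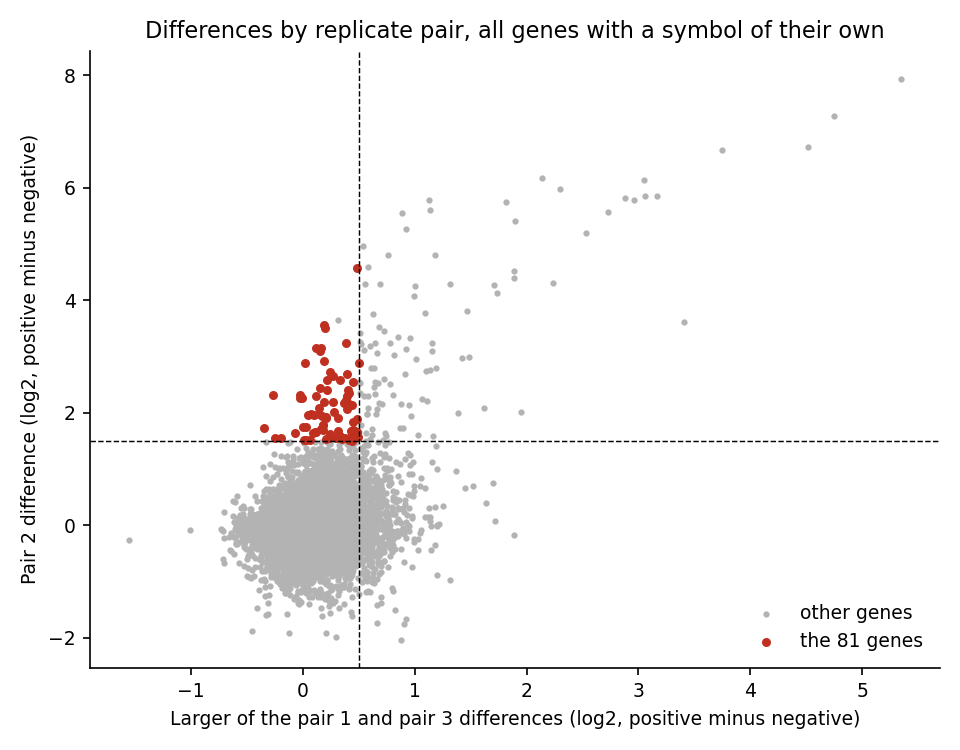
Each point is 1 of 19938 genes, with the larger of its pair 1 and pair 3 differences on the horizontal axis and its pair 2 difference on the vertical axis (log2, positive minus negative); dashed lines mark the limits of 0.5 and 1.5. The 81 genes in red fill the upper left field by the way they were chosen, beside 1 gene left out by the start of its symbol. The remaining genes above 1.5 lie to the right of them, up to 7.94 in pair 2.

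**Figure D2:**
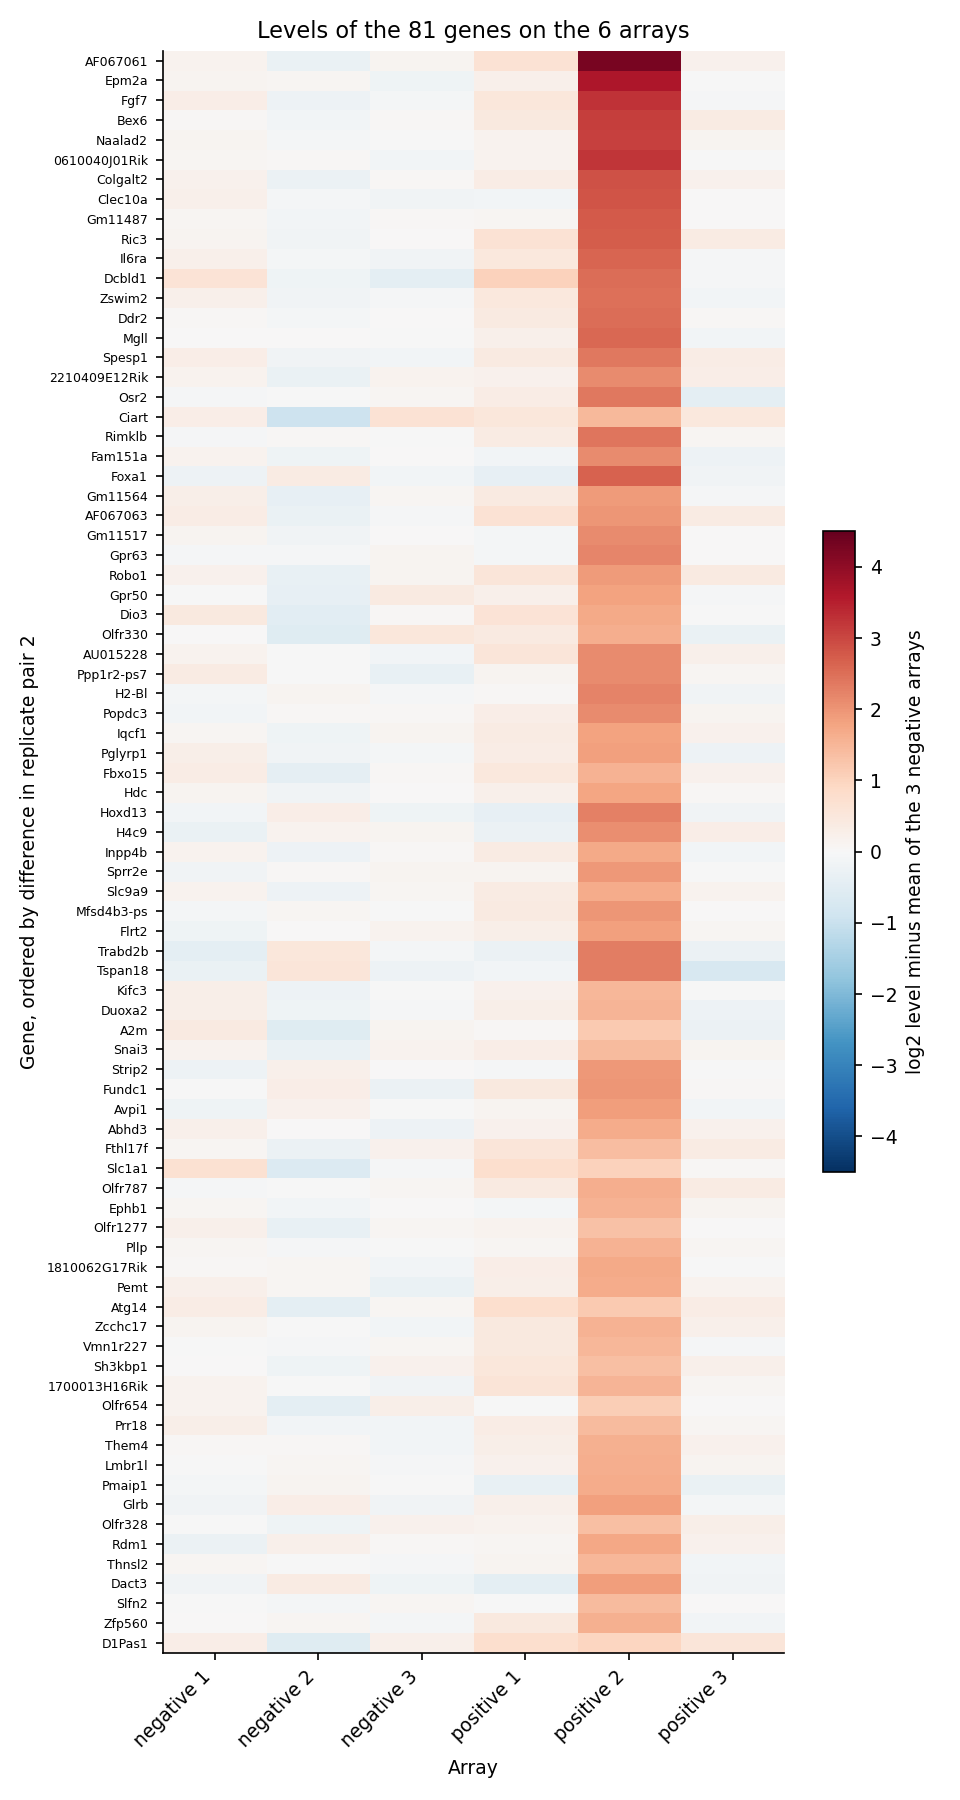
Log2 level of the 81 genes on the 6 arrays minus the mean of the 3 negative arrays of the same gene, in order of the pair 2 difference. Positive array 2 is the highest array for all 81, and the other 5 arrays stay near the negative mean for most genes, with Ciart, Slc1a1 and D1Pas1 among those lower in negative array 2.

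A difference within pair 2 can come from a high positive array or a low negative array of that number. Positive array 2 was the highest of the 6 arrays for all 81 genes, against 18.3% of all genes. It lay at least 1 above each of the other 5 arrays for 72 of the 81, against 1.19% of all genes. The remaining 9 stood out less. D1Pas1, a testis DEAD-box helicase gene, stood at 8.20, 7.34 and 8.14 in negative arrays 1, 2 and 3 and 8.63, 8.84 and 8.42 in positive arrays 1, 2 and 3. Its positive array 2 exceeded the next array by 0.21, and its negative array 2 was the lowest of all. Slc1a1, a glutamate transporter gene, stood at 7.66, 6.37 and 6.95 in the negative and 7.77, 8.03 and 7.06 in the positive arrays, and positive array 2 exceeded positive array 1 by 0.26. Atg14, an autophagy gene, stood at 9.93, 9.16 and 9.69 in the negative and 10.36, 10.75 and 9.91 in the positive arrays, with positive array 2 at 0.39 above positive array 1. In all 3 genes negative array 2 was the lowest of the 6 arrays. Negative array 2 was the lowest of the negative arrays for 43 of the 81 (53.1%), against 46.9% of all genes, and lay over 0.5 below the mean of the other 2 for 11 of them and over 0.5 above it for 4. Against the mean of all 3 negative arrays, positive array 2 was at least 1.5 higher for 68 of the 81 and less than that for 13. The limits that chose the genes bear on all counts of this paragraph, so nothing is read from them against the shares of all genes.

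AF067061 had the largest difference, 23.9-fold in pair 2. It lies in the cluster of Tcstv genes, which are transcribed in two-cell embryos, and stood at 5.49, 5.04 and 5.46 in negative arrays 1, 2 and 3 and 5.98, 9.62 and 5.52 in positive arrays 1, 2 and 3. All 3 positive arrays lay above the negative arrays, positive array 2 by far the most. Its neighbour AF067063 stood at 6.11, 5.48 and 5.74 in the negative and 6.43, 7.78 and 6.13 in the positive arrays, also without overlap. Copies in this cluster are near-identical, so each value is uncertain as that of 1 gene.

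Ligands, receptors and other proteins of the cell surface or outside the cell numbered 17 of the 81, with pair 2 differences between 1.54 and 3.50 (median 2.06). Fgf7, which encodes the keratinocyte growth factor, stood at 6.03, 5.47 and 5.65 in negative arrays 1, 2 and 3 and 6.23, 8.97 and 5.66 in positive arrays 1, 2 and 3. Positive array 2 was 11.3-fold above negative array 2, and positive array 3 lay within the range of the negative arrays. Il6ra, the ligand-binding chain of the interleukin-6 receptor, stood at 7.74, 7.41 and 7.34 in the negative and 7.98, 10.13 and 7.44 in the positive arrays, and only positive arrays 1 and 2 exceeded the negative arrays. Clec10a, a C-type lectin known from macrophages and dendritic cells, stood at 5.41, 5.08 and 5.01 in the negative and 5.05, 8.01 and 5.20 in the positive arrays. Its positive arrays 1 and 3 lay within the range of the negative arrays, so positive array 2 alone was high.

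Ddr2, a receptor tyrosine kinase for collagen, stood at 6.37, 6.21 and 6.32 in the negative and 6.70, 8.80 and 6.34 in the positive arrays, with positive array 3 inside the range of the negative arrays. Dcbld1, a membrane protein gene, stood at 9.87, 9.06 and 8.79 in the negative and 10.27, 11.75 and 9.19 in the positive arrays, and differed by 0.40, 2.69 and 0.40 in pairs 1, 2 and 3. Its array 1 was high in both groups, so the groups overlapped although each pair differed the same way. Robo1, a receptor for Slit guidance cues, stood at 9.33, 8.84 and 9.30 in the negative and 9.71, 11.05 and 9.55 in the positive arrays without overlap. The G protein-coupled receptor genes Gpr63 and Gpr50 differed by 2.26 and 2.19 in pair 2, and by -0.03 and 0.27 in pair 1. Gpr50, a relative of the melatonin receptors, stood at 6.04, 5.69 and 6.49 in the negative and 6.31, 7.88 and 6.03 in the positive arrays, with negative array 2 the lowest array of all. Ephb1, an ephrin-B receptor, differed by 1.66, Pglyrp1, a secreted protein that binds bacterial cell wall, by 1.98, and Glrb, the beta subunit of the glycine receptor, by 1.54 in pair 2. The other surface and secreted genes of this kind were Popdc3 at 2.06, the guidance ligand Flrt2 at 1.83, the tetraspanin Tspan18 at 1.77, the protease inhibitor A2m at 1.73, the receptor gene Lmbr1l at 1.54 and Trabd2b, described with its probesets. A2m differed by -0.35 and -0.40 in pairs 1 and 3, so its pairs did not share a direction.

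Genes for enzymes of metabolism numbered 12, with pair 2 differences between 1.52 and 3.55 (median 2.07). Epm2a encodes laforin, the phosphatase of glycogen, and stood at 6.51, 6.49 and 6.19 in negative arrays 1, 2 and 3 and 6.62, 10.04 and 6.38 in positive arrays 1, 2 and 3. Positive array 2 was 11.7-fold above negative array 2, and the groups overlapped because positive array 3 lay below negative arrays 1 and 2. Naalad2, a peptidase that releases glutamate from N-acetylaspartylglutamate, stood at 4.16, 3.97 and 4.02 in the negative and 4.22, 7.12 and 4.18 in the positive arrays, without overlap. The gap was narrow and the signal dim, with a negative mean of 4.05 against a median of 7.61 over all genes. Rimklb, which makes that same dipeptide, stood at 10.58, 10.70 and 10.63 in the negative and 10.99, 13.06 and 10.72 in the positive arrays, also without overlap. Their pair 2 differences were 3.15 and 2.35. Positive array 2 was the highest array for all 81 genes, so sharing it links these enzymes no more than any others here. A link between them was not tested.

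Colgalt2, a galactosyltransferase of collagen, stood at 6.23, 5.79 and 6.10 in the negative and 6.39, 8.89 and 6.22 in the positive arrays. Mgll, the lipase that splits monoacylglycerols and with them an endocannabinoid, stood at 6.51, 6.51 and 6.49 in the negative and 6.73, 9.09 and 6.38 in the positive arrays. The negative arrays of Mgll differed by under 0.03 and positive array 3 lay below them. Dio3, which inactivates thyroid hormone, stood at 6.66, 5.76 and 6.30 in the negative and 6.85, 7.95 and 6.23 in the positive arrays, and its negative array 2 was the lowest array. In pair 2, Hdc, which makes histamine, differed by 1.96, Inpp4b, a phosphoinositide phosphatase, by 1.91, Pemt, which makes phosphatidylcholine, by 1.61, Them4, an acyl-CoA thioesterase, by 1.55, Abhd3, a lipase of phospholipids, by 1.67, and Thnsl2, a threonine synthase-like gene, by 1.52.

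Genes known from germ cells numbered 5. Spesp1, a protein of the equatorial segment of sperm, stood at 7.71, 7.25 and 7.29 in negative arrays 1, 2 and 3 and 7.81, 9.79 and 7.74 in positive arrays 1, 2 and 3, without overlap. Zswim2, a zinc finger gene of the testis, stood at 5.26, 4.88 and 4.99 in the negative and 5.53, 7.52 and 4.92 in the positive arrays, where positive array 3 lay inside the range of the negative arrays. Iqcf1, a protein of the sperm acrosome, stood at 6.17, 5.89 and 6.21 in the negative and 6.44, 7.91 and 6.29 in the positive arrays, without overlap. The smallest difference of the 5 was that of D1Pas1, given above.

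Transcription, chromatin and nucleic acid genes numbered 9, with pair 2 differences between 1.51 and 2.40. Osr2, a zinc finger regulator of bone and palate, stood at 6.84, 6.88 and 6.99 in negative arrays 1, 2 and 3 and 7.24, 9.28 and 6.48 in positive arrays 1, 2 and 3. Its pairs differed by 0.40, 2.40 and -0.52, so pair 3 ran the other way. Foxa1, a forkhead factor of endoderm and its derivatives, stood at 7.34, 7.92 and 7.44 in the negative and 7.18, 10.24 and 7.41 in the positive arrays, and negative array 2 was the highest negative array. Hoxd13, a homeobox gene of the limb and hindgut, stood at 6.76, 7.19 and 6.70 in the negative and 6.53, 9.15 and 6.74 in the positive arrays, with negative array 2 again the highest negative array. Positive arrays 1 and 3 of both genes lay below or among the negative arrays, and without replicate 2 their fit differences were both -0.09. In pair 2, Snai3, a zinc finger gene of the Snail family, differed by 1.70, Zfp560, a zinc finger gene on the two-cell list, by 1.51, Zcchc17, a nucleolar zinc finger gene, by 1.59 and Rdm1, a gene of the RAD52 motif, by 1.52. Rdm1 shares 7 further probesets with Rnu2-10, which differed by -0.46 to -0.39 in pair 2.

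Genes for cell death, autophagy, ubiquitin and signalling inside the cell numbered 10, with pair 2 differences between 1.51 and 1.97. Fbxo15, an F-box gene known for its activity in ES cells and a target of Oct4 and Sox2, stood at 11.34, 10.61 and 11.07 in negative arrays 1, 2 and 3 and 11.48, 12.58 and 11.20 in positive arrays 1, 2 and 3, and the groups overlapped through negative array 1. Fundc1, a receptor for mitophagy on the mitochondrial surface, stood at 10.12, 10.43 and 9.88 in the negative and 10.57, 12.12 and 10.21 in the positive arrays. Avpi1, a vasopressin-induced gene, stood at 10.15, 10.56 and 10.35 in the negative and 10.46, 12.24 and 10.22 in the positive arrays, where negative array 2 was already the highest negative array. Pmaip1, which encodes the p53 target Noxa, stood at 7.80, 8.02 and 7.87 in the negative and 7.55, 9.56 and 7.60 in the positive arrays. In positive arrays 1 and 3 Pmaip1 lay below all 3 negative arrays, and positive array 2 was the highest array. Dact3, an inhibitor of Wnt signalling, was also lowest in positive array 1 and differed by -0.27, 1.52 and 0.03 in pairs 1, 2 and 3, and Slfn2, of the Schlafen family, differed by 0.01, 1.51 and -0.10. The kinesin gene Kifc3, Strip2 of the STRIPAK complex and the adaptor gene Sh3kbp1 differed by 1.74, 1.70 and 1.56 in pair 2.

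Genes whose task is not given here numbered 10, beside 5 pseudogenes. Bex6 stood at 5.44, 5.25 and 5.42 in negative arrays 1, 2 and 3 and 5.82, 8.49 and 5.76 in positive arrays 1, 2 and 3, without overlap. The gene 0610040J01Rik stood at 8.03, 8.01 and 7.83 in the negative and 8.13, 11.16 and 7.94 in the positive arrays, and its 5 other arrays spanned under 0.31. The pseudogene 2210409E12Rik stood at 7.74, 7.28 and 7.72 in the negative and 7.76, 9.72 and 7.87 in the positive arrays, without overlap. Ric3, a chaperone of acetylcholine receptors counted among 5 membrane and transport genes, stood at 6.42, 6.12 and 6.31 in the negative and 6.92, 8.99 and 6.65 in the positive arrays, without overlap. Its pair 1 difference was the closest to the limit of 0.5 from below. The other membrane genes beside Slc1a1 were Slc9a9, a sodium-proton exchanger, at 1.90 in pair 2, Duoxa2, a maturation factor of dual oxidase, at 1.74 and Pllp, plasmolipin, at 1.63. Of genes with no role given here, Fam151a differed by 2.32, Gm11564 by 2.30, AU015228 by 2.16, Sprr2e by 1.91, 1810062G17Rik by 1.62, 1700013H16Rik by 1.56 and Prr18 by 1.56. The other pseudogenes were Gm11517 at 2.26, Ppp1r2-ps7 at 2.14, H2-Bl at 2.09 and Mfsd4b3-ps at 1.89. A probeset that H2-Bl shares with H2-Q1 differed by -0.11 in pair 2.

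**Figure D3:**
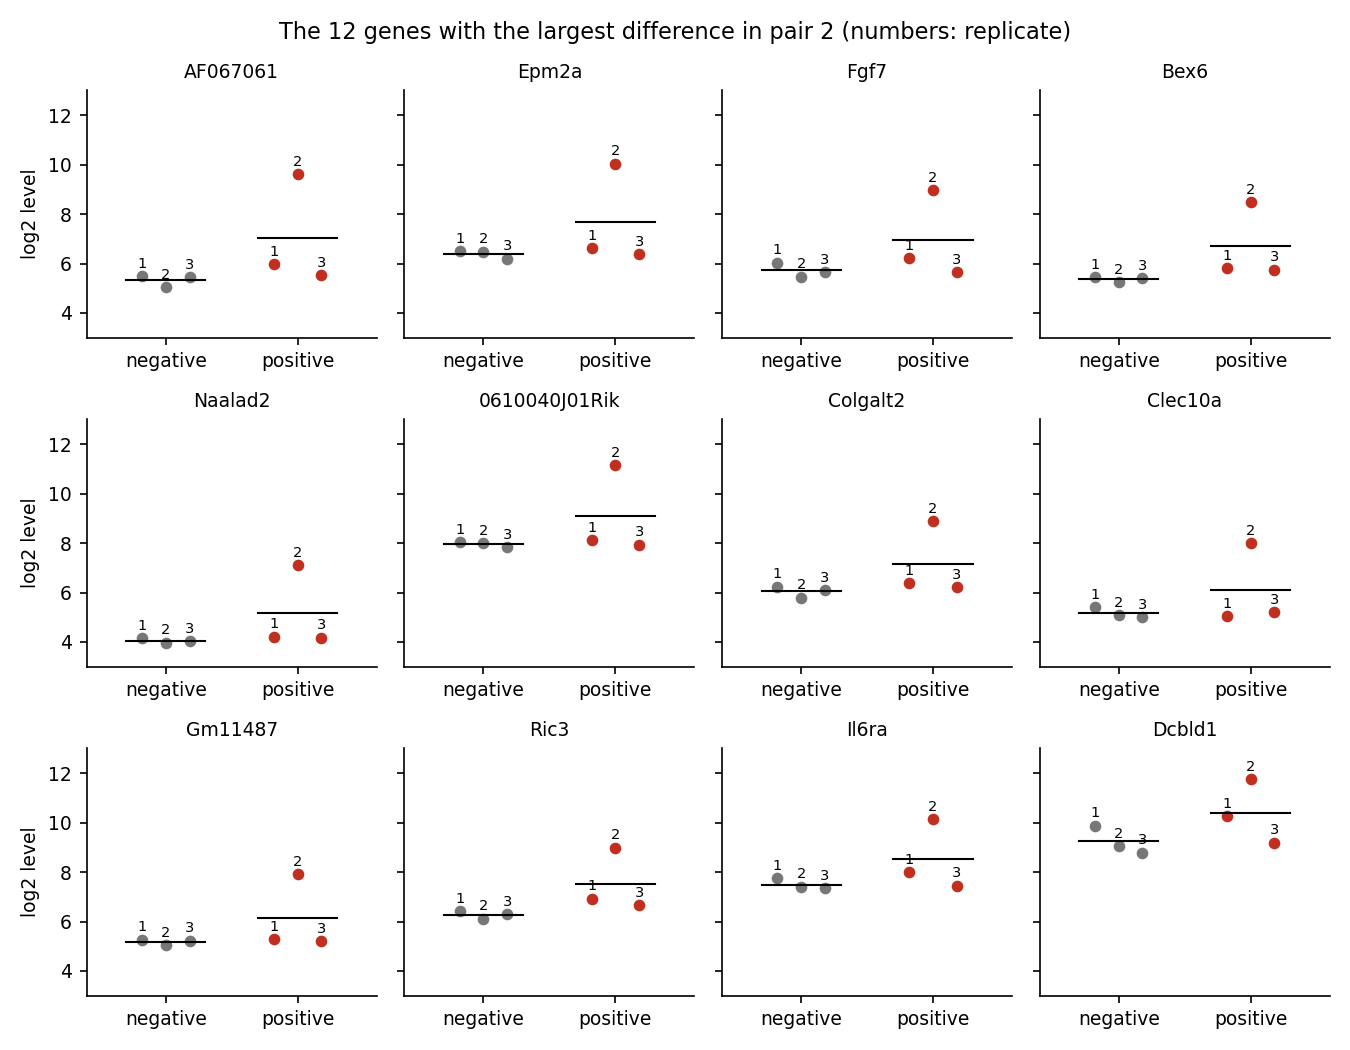
Log2 level of the 12 genes with the largest pair 2 difference on each array, grey for negative and red for positive cells, with the replicate number beside each point and a line at the mean of each group. In each panel positive array 2 is the highest point, and the mean of the positive cells rests on it.

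Chemosensory receptor genes numbered 6, 5 of 1027 measured olfactory receptor genes and 1 of 118 measured Vmn1r genes. These are 0.487% and 0.847% of each family, against 0.406% of all genes. Olfr330 stood at 5.23, 4.67 and 5.72 in negative arrays 1, 2 and 3 and 5.60, 6.84 and 4.92 in positive arrays 1, 2 and 3, with negative array 2 the lowest array and a pair 3 difference of -0.80. Its neighbour Olfr328 stood at 5.82, 5.68 and 6.06 in the negative and 6.02, 7.21 and 6.10 in the positive arrays. Olfr787, Olfr1277 and Olfr654 differed by 1.66, 1.64 and 1.56 in pair 2. Over all olfactory receptor genes, the median differences were -0.11, -0.02 and -0.16 in pairs 1, 2 and 3, and 7 were at least 1.5 higher in pair 2 (0.682%, against 0.923% of all genes). Of the vomeronasal genes, Vmn1r227 alone differed by as much, with 0.43, 1.57 and -0.14 in the 3 pairs. Olfactory receptors have near-identical copies, and 2 probesets are shared by 6 of these genes, Olfr330 and Olfr328 among them. One differed by 0.43, 2.67 and -0.47 in pairs 1, 2 and 3, within the limits, and the other by 0.84, 3.65 and -0.34, above the limit in pair 1.

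For several other genes, further probesets gave other values. Ciart, a repressor of the circadian clock, stood at 10.00, 8.75 and 10.33 in the negative and 10.22, 11.15 and 10.19 in the positive arrays on the probeset used, and on its other probeset at 8.47, 8.24 and 9.25 in the negative and 9.15, 8.46 and 9.24 in the positive arrays. The second probeset differed by 0.22 in pair 2, so the value of Ciart depends on the probeset. Ephb1 differed by -0.02 in pair 2 on its other probeset, and Trabd2b, a protease that acts on Wnt proteins, by -1.06 against 1.78 on the one used. With the probeset of lowest mean these 3 genes no longer met the limits. The remaining 78 genes had 1 single-symbol probeset each.

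Gm11487 stood at 5.26, 5.04 and 5.22 in the negative and 5.28, 7.93 and 5.20 in the positive arrays on its own probeset, and 5 probesets that it shares with 4 other genes differed by 6.65 to 6.72 in pair 2 and by 2.68 to 2.84 in pair 1. By those shared probesets it would not have met the limit in pair 1. The ferritin heavy chain-like gene Fthl17f differed by 0.46, 1.66 and 0.18 in pairs 1, 2 and 3, and 4 probesets that it shares with its copies by 2.01 to 2.10 in pair 2. H4c9, a histone H4 gene, stood at 7.75, 8.19 and 8.17 in the negative and 7.77, 10.13 and 8.34 in the positive arrays. The 5 probesets shared by 11 histone H4 genes stood at 13.6 to 13.9 on the arrays and differed by -0.02 to -0.01 in pair 2. At that level a change in 1 of the 11 genes might not show. Transcripts of copies cannot be separated on these probesets, and which copy gave the signal was not tested.

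The 81 genes lay on 20 chromosomes, 6 of them on X (7.41%, against 3.72% of all genes with a known chromosome). In the order of measured genes along the chromosomes of GRCm38.p6, 4 of the 81 lay next to another of them, AF067061 beside AF067063 and Olfr330 beside Olfr328. Another 158 genes were next to one of the 81. Of these, 5 (3.16%) were at least 1.5 higher in pair 2, against 0.923% of all genes, a share that includes the 81. The median pair 2 difference of the 158 was -0.01, so most neighbours did not share the difference. Ubtfl1, a two-cell-stage gene beside Naalad2, stood at 5.73, 5.47 and 5.95 in the negative and 6.91, 10.27 and 6.21 in the positive arrays. Elobl, beside 2210409E12Rik, stood at 5.90, 5.90 and 5.82 in the negative and 6.99, 8.87 and 7.24 in the positive arrays, higher in all 3 positive arrays. Marveld1, beside Avpi1, differed by 0.65, 1.97 and 0.27, BC147527, beside AF067061, by 1.12, 5.78 and 0.54, and Spopfm2, beside Them4, by 2.73, 5.57 and 0.87 in pairs 1, 2 and 3. All 5 neighbours passed 0.5 in pair 1, and Elobl, BC147527 and Spopfm2 passed it in pair 3 as well. With both pairs below 0.5 they would have been among the 81, so passing it in at least 1 pair follows from the limits.

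The 184 genes at least 1.5 higher in pair 2 were 81 described here, 16 left out by the start of their symbol and 87 others. Of the 16, 1 was within both limits. Of the 87, 54 passed the limit of 0.5 in pair 1 only, 6 in pair 3 only and 27 in both. Their median differences by pair were 0.78, 2.80 and 0.39. The limits that sort the genes into these sets bear on those medians. The same limits turned to the other pairs gave 2 genes for pair 1, Cxcl15 and Scgb1a1, and 1 for pair 3, Scarna13. Turned to lower values, they gave 15 genes for pair 2, 0 for pair 1 and 2 for pair 3.

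Values ran on without a gap across the limits. Just below the limit in pair 2 lay Synpo2 at 1.49, Abcg3 at 1.49, Mreg at 1.49, Ctr9 at 1.48 and Tmem119 at 1.48, and just above it D1Pas1 at 1.5 and Zfp560 and Slfn2 at 1.51. Just above the limit in pair 1 or 3 lay Zfand2a, Otud6a, Olfr881, Fam124a and Gm4971, the last with 0.51, 3.41 and 0.08 in the 3 pairs. Fam124a differed by 0.51, 3.26 and -0.01. Ric3, on the other side of the limit, differed by 0.50, 2.88 and 0.34, near it in pairs 1 and 2 but less so in pair 3.

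Two-cell-stage genes, from a list of 79 symbols of which 42 were measured, were also highest in positive array 2. Of the 42, 27 were at least 1.5 higher in pair 2 (64.3%, against 0.923% of all genes). In pair 1 it was 14 and in pair 3 it was 3, and 0 passed the test over all genes. Their mean level was 6.91, 6.86 and 7.04 in negative and 8.20, 10.00 and 7.60 in positive arrays 1, 2 and 3, and their median differences were 0.58, 3.04 and 0.29. Of the 81, AF067061, Pemt and Zfp560 are on this list, 3 of the 42 measured (7.14%, against 0.406% of all genes). The 42 include genes left out by the start of their symbol, and the limits decide which others are among the 81. Nothing is read from this share. Several genes of the list are known from cells sorted this way, so the list does not stand apart from the design. The part of the two-cell list in the differences of the 81 genes was not tested.

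Other cell types that an ES culture can hold were read from marker lists. Of 25 fibroblast, 28 endoderm, 26 trophoblast, 24 neural, 25 muscle and 31 blood markers, 0 were at least 1.5 higher in pair 2. The share of all genes was 0.923%. Among the 81 there were 0 of these markers, where the 81 are 0.406% of all genes. At such shares a list this short can easily hold none, so nothing is read from these counts. The lists do not hold every gene known from these cells: Foxa1, Clec10a and Ddr2, described above, are on none of them. Fibroblast markers had a mean level of 7.34, 7.73 and 7.39 in negative and 7.15, 7.71 and 7.04 in positive arrays 1, 2 and 3, so replicate 2 was the highest in both groups. Endoderm markers stood at 8.15, 7.95 and 8.02 in negative and 7.91, 7.97 and 7.75 in positive arrays. Of the blood markers, 21 of 31 were among the dimmest 30% of genes in negative arrays, and their median differences were -0.12, -0.07 and -0.13. Of 39 oocyte and 29 interferon response genes, 0 were at least 1.5 higher in pair 2, and nothing is read from this either. Of 58 germline genes, 4 were (6.90%, against 0.923% of all genes), namely Dazl, Taf7l, Slc25a31 and Sycp1, and 0 of the 58 were among the 81. Of 28 pluripotency genes, 2 were at least 1.5 higher (7.14%), Fbxo15 and Dppa3, and the median pair 2 difference of that list was -0.16.

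**Figure D4:**
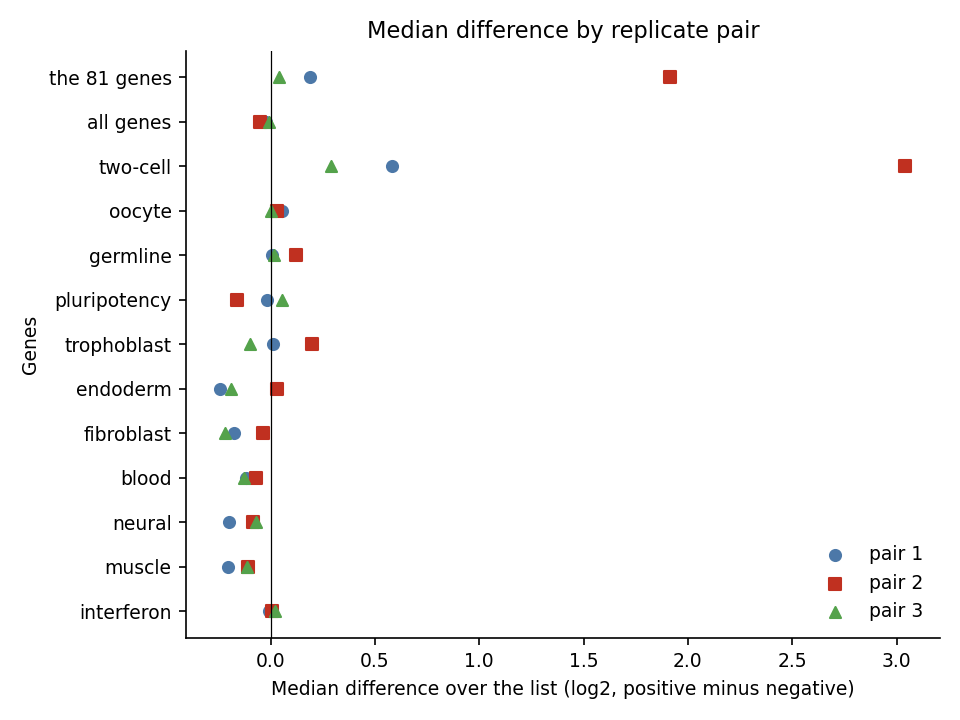
Median log2 difference, positive minus negative, of the 81 genes, of all genes and of 11 marker lists in each replicate pair. The two-cell list lies at 3.04 in pair 2 and the 81 genes at 1.91, where they were chosen to be high, while the other lists stay between -0.24 and 0.20 in all pairs.

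The median level in negative arrays was 6.83, against 7.61 over all genes, and 60 of the 81 lay below the latter. The level of a probeset depends on its probes as well as on the transcript, so this describes signal and not the amount of RNA. By that signal, the 5 with the highest negative mean were Fbxo15, Rimklb, Avpi1, Fundc1 and Ciart. Their positive array 2 values lay between 11.15 and 13.06.

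The RefSeq promoter table held 59 of the 81 genes, with windows from 250 bases before to 50 after each annotated start. TATAAA was found for 13 of the 59 (22.0%), against 13.6% of 15563 measured genes with a window. GGATTA was found for 6 (10.2%, against 7.58%), CACGTG for 8 (13.6%, against 9.52%), CCAAT for 27 (45.8%, against 41.7%) and GGGCGG for 32 (54.2%, against 53.0%). AGGTCA was found for 7 (11.9%, against 16.3%) and AGATAA for 6 (10.2%, against 10.8%). Taking the window with the most CpG for each gene, the median was 14 CpG, against 16 over all genes. These shares describe annotated starts, and draw nothing about which factor acts there.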

How the data were processed

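RNA of 3 positive and 3 negative samples was labelled with biotin from 100 ng and read on an Affymetrix whole-transcript array, per the labels' protocols. The deposited values are log2 expression that the authors made with RMA in Affymetrix Expression Console, per the submitters' processing notes; its version, the genome build and the annotation were not given in the sources used here. RMA pulls dim probesets together, and normalizing quantiles removes differences in total RNA. The number of arrays limits the precision.

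Of 35556 probesets, 21789 had 1 symbol in the platform annotation, 1621 listed several and 12146 had no entry and are left unnamed. The probeset with the highest mean over 6 arrays was kept per gene, which left 19938 genes. All 81 genes matched RefSeq by identifier. Groups and replicate numbers came from the sample titles. Deviations from the group mean correlated between same-numbered arrays at r = 0.55, 0.55 and 0.46 for numbers 1, 2 and 3. The deviations within a group depend on each other, so a shift shared by the arrays of 1 number bears on all these values. Values for arrays of unlike number are not given here, so these do not show that each number pairs its samples. The meaning of the numbers is not labelled. The groups were compared over all genes by limma 3.58.1 (R 4.3.3) (two-sided, Benjamini-Hochberg adjustment, threshold 0.05), without a block; the code was tested on simulated data. Since separate cultures are not labelled, p-values reflect sample-to-sample spread that could be technical. Alternatives changed the limits, scaling, dim-gene filter, probeset choice, array weights and block, or left arrays out.

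The members and lists were chosen with earlier results of these data known. The text names the 20 genes with the largest pair 2 difference, the 5 with the highest negative mean, the 5 nearest above and below the pair 2 limit, the 5 nearest above the other limit, members on a list or next to another member, families with at least 2 members, and Kdm1a. Other members, neighbours and list genes were named after their values were seen.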

Additional observations from a re-analysis of the deposited data

Results flagged for a closer look

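The comparisons used no probeset that carries more than 1 symbol or no symbol. Of 13767 such probesets, 57 met the same limits as the 81 genes, at least 1.5 higher in pair 2 and below 0.5 in pairs 1 and 3. They were 17 of 1621 with several symbols (1.05%) and 40 of 12146 not listed in the annotation (0.329%). The listed ones included 3 shared by Obox genes, 4 shared by Speer4-type genes, 1 shared by Gm9919 and Duxf3, and 1 shared by the heat-shock genes Hspa1a and Hspa1b. The probeset shared by Gm9919 and Duxf3, a copy of the double homeobox gene that activates two-cell-stage genes, stood at 7.55, 7.05 and 7.48 in negative and 8.02, 10.99 and 7.45 in positive arrays 1, 2 and 3. Probeset 10485357, which has no gene name here, stood at 13.24, 7.07 and 13.43 in negative and 13.57, 9.10 and 13.40 in positive arrays, so both arrays of replicate 2 were far below the other 4.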

How the results depend on the processing

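The count of 81 genes depends on the limits: it was 242 with a limit of 1 in pair 2, 35 with a limit of 2, 45 with a limit of 0.25 in pairs 1 and 3, and 120 with 0.75. Without the condition on 1 pair it lay between 87 (replicate 3) and 135 (replicate 1), and it has no value without replicate 2. Median centring gave 82 genes, 81 of them shared. A second quantile normalization gave 71, of which 58 were shared; among the 23 lost were AF067061, AF067063, Bex6, Osr2 and Ric3, and the cause was not tested. Leaving out the dimmest 30% of genes kept 60 of the 81, by construction. No gene passed limma under any of the 13 other settings of the fit, the replicate block included (0 genes). The median fit difference of the 81 was 0.71 with the replicate block too, 0.29 with array weights, and between 0.16 (without positive array 2) and 1.03 (without positive array 3) when 1 array was left out. Of the 81 differences, 17 were below 0 without positive array 2, 24 without both arrays of replicate 2 and 6 with array weights (A2m, Fam151a, Gpr50, Olfr330, Olfr654 and Pmaip1). The median pair 2 difference was 1.91 with median centring and 1.87 with a second quantile normalization. With a reference chosen after seeing the data it was 1.85 against all negative arrays and 1.73 against positive arrays 1 and 3. The median negative level was -0.78 after median centring, which sets each array's median to 0, 6.79 after a second quantile normalization, and between 6.71 and 6.83 with 1 negative array left out.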
